A study of Mus musculus with 2 samples.

Results

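The 10 genes described here encode proteins that process and crosslink collagen. They are *Lox*, *Loxl1*, *Loxl2*, *Plod1*, *Plod2*, *P4ha1*, *P4ha2*, *Serpinh1*, *Bmp1* and *Pcolce*. They were taken by symbol from the 31053 genes counted in each library, and each symbol matched 1 gene. Their levels were set against those of *Col1a1* and *Col1a2*, which encode the chains of type I collagen, in the same culture. Primary pericytes (PCs, the mural cells of capillaries) were cultured from mouse brain and sequenced as single cells, with 1 library at passage 5 (PC5) and 1 at passage 20 (PC20). Each isolation pooled the brains of 6 wild type female C57BL/6N mice aged 6 to 8 weeks, with no transgene and no treatment in either culture. By the methods of the study the 2 cultures were separate isolations, while the deposited design speaks of 1, so passage and isolation cannot be told apart. The cells were grown on plates coated with type I collagen, first in an endothelial medium with ascorbic acid and later in a pericyte medium.

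Fibrillar collagen is made as procollagen, 3 chains that wind into a triple helix in the endoplasmic reticulum. Prolyl hydroxylases modify the chains so that the helix is stable at body temperature, lysyl hydroxylases prepare lysines for crosslinking and glycosylation, and the chaperone HSP47 binds the folded helix. Outside the cell the end propeptides are cut off, and lysyl oxidases then join neighbouring molecules into a durable fibril. The hydroxylases need iron, oxoglutarate, oxygen and ascorbate, and several genes of this set, among them *P4ha1*, *P4ha2*, *Plod1*, *Plod2* and *Lox*, are known targets of the hypoxia-inducible factor HIF-1. In brain several of these proteins also act on type IV collagen, the network collagen of the vascular basement membrane.

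Expression is given as CPM, the unique molecular identifiers (UMIs, each standing for 1 captured RNA molecule) of a gene summed over the kept cells and scaled to 1e+06 UMIs per library. Because 1 tagged end is counted per molecule, CPM does not scale with gene length. Levels of different genes are set side by side on that basis, while differences in capture between genes were not measured. The log2 ratio is PC5 over PC20, so positive values are higher in PC5. Values in parentheses are 95% intervals, exact Poisson for CPM, exact conditional binomial for a log2 ratio and Clopper-Pearson for a share of cells. They account for counting error alone. Each passage had a single library, so a difference between passages has no replicate check and no test was possible, and cells of 1 library are not replicates.

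Kept cells numbered 9950 in PC5 and 4749 in PC20, with medians of 21700 and 33424 UMIs and totals of 223054273 and 191122251. Of the kept barcodes, 20 occurred in both libraries (0.201% of PC5 and 0.421% of PC20). An *Mki67* or *Top2a* UMI, a sign of a cycling cell, was found in 35.4% of PC5 and 57.9% of PC20 cells after each cell was thinned to 10500 UMIs. Defining markers of brain PCs were low or absent. *Pdgfrb* had 44.6 CPM in PC5 against 5.43 CPM in PC20, *Rgs5* had 405 UMIs and 0, and *Abcc9* had 1 UMI in each library. Summed over the list, the 6 pericyte markers had 53.9 and 8.53 CPM, with *Rgs5* and *Kcnj8* at 0 in PC20. Most of that sum came from *Pdgfrb*, and *Anpep* stood the other way, with 1.93 CPM in PC5 and 3.00 in PC20. The 4 fibroblast markers had 1302 and 101 CPM, with *Lum* at 0 in PC20. *Col3a1*, itself a fibrillar collagen, made up most of this sum (1158 and 101 CPM). *Pdgfra* had 88.6 and 0.131 CPM and *Dcn* 51.3 and 0.167 CPM. The 3 smooth muscle markers had 283 and 49.5 CPM, with *Tagln* at 219 and 0.230 CPM and *Acta2* closer, at 62.8 and 49.2 CPM. Summed endothelial, microglial and oligodendrocyte markers stayed under 1 CPM in both libraries, and the 2 astrocyte markers had 151 and 229 CPM, nearly all from *Slc4a4*. The summed pericyte, fibroblast and smooth muscle levels were thus lower in PC20, as were the fibrillar collagens, and their part in the values below was not tested.

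Set against all genes, the 10 genes did not share a direction. All 10 were detected in 10% or more of the cells of each library, and 6 were higher in PC5 (*Bmp1*, *Loxl2*, *Plod2*, *Lox*, *Loxl1* and *Plod1*), where 48.9% of the 10504 expressed genes were. The other 4 (*P4ha2*, *Pcolce*, *P4ha1* and *Serpinh1*) were higher in PC20, as were 51.1% of expressed genes. At least 2-fold higher in PC5 were 3 of the 10 (*Bmp1*, *Loxl2* and *Plod2*) beside 17.9% of expressed genes, and at least 2-fold higher in PC20 were another 3 (*P4ha2*, *Pcolce* and *P4ha1*) beside 19.1%. The median log2 ratio of the 10 was 0.44, which became -0.40 with UMIs per cell in place of CPM, and of all expressed genes -0.03. Summed, the 10 genes took up 2259 CPM in PC5 against 2004 CPM in PC20, or 0.226% and 0.200% of all UMIs. Per kept cell these sums were 50.6 and 80.7 UMIs. On that scale the median of all expressed genes was -0.88, since PC20 cells held more UMIs, and *Loxl1* and *Plod1* were then higher in PC20. Fewer UMIs of a gene per cell cannot be told apart from fewer expressing cells in a summed level.

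**Figure D1:**
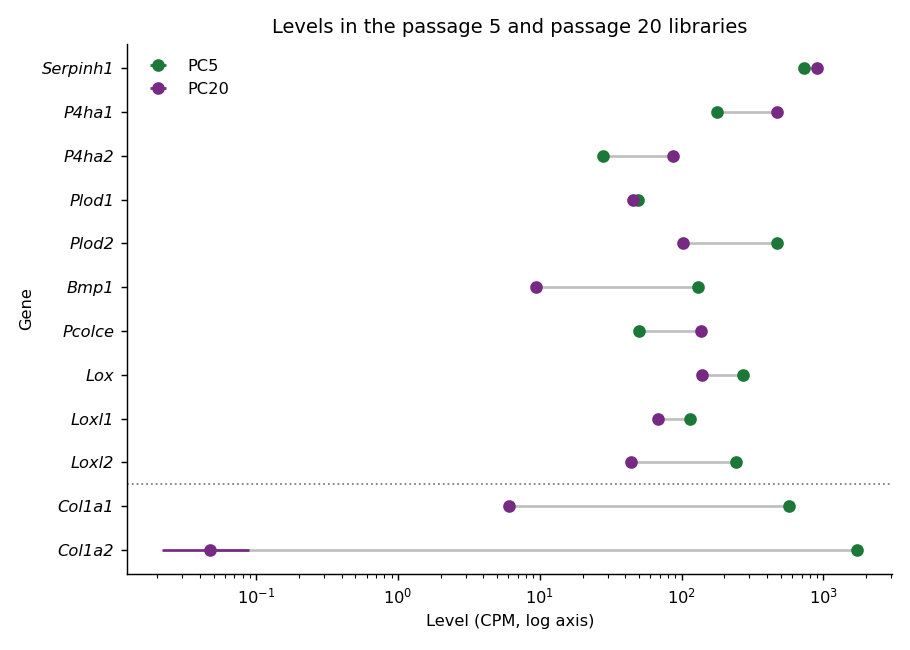
Level of each gene in CPM on a log axis, in PC5 (green) and PC20 (purple), with the type I collagen genes below the dotted line. Bars are 95% Poisson intervals and are mostly narrower than the points. *Serpinh1* lies at 726 and 905 CPM, *Bmp1* and *Plod2* lie far to the right in PC5, *P4ha1*, *P4ha2* and *Pcolce* lie to the right in PC20, and *Col1a2* spans from 0.0471 to 1737 CPM.

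Both type I chains differed more between the libraries than any of the 10 genes. *Col1a1* had 576 CPM (573 to 579) in PC5 against 6.04 CPM (5.70 to 6.40) in PC20, for a log2 ratio of 6.57 (6.49 to 6.66). *Col1a2* had 1737 CPM (1731 to 1742) in PC5 against 0.0471 CPM (0.0215 to 0.0894) in PC20, where only 9 UMIs were counted, and its log2 ratio was 15.17 (14.25 to 16.30). The 10 genes therefore remained at 9.35 CPM or more in a culture with 9 *Col1a2* UMIs in all. What little *Col1a1* PC20 had was unevenly spread. Of 4749 cells 324 held a *Col1a1* UMI, 173 of them a single one, while 58 cells with more than 5 held 60.7% of the UMIs and 1 cell held 50.

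Per UMI of *Col1a1* and *Col1a2* together, PC5 held 0.977 UMIs of the 10 genes and PC20 held 329, a 337-fold higher ratio in PC20. The ratio was higher in PC20 for each of the 10, from 27.2-fold for *Bmp1* to 1183-fold for *P4ha2*, because the denominator differed far more than any numerator. Against broader denominators the gap narrowed. Per UMI of the 11 fibrillar collagen genes the ratio was 0.579 in PC5 and 10.6 in PC20 (18.3-fold), and per UMI of all 44 collagen chain genes 0.375 and 2.14 (5.70-fold). On this last scale *Bmp1* was the exception, at 0.0216 UMIs per collagen UMI in PC5 and 0.00996 in PC20, while *Loxl2* stood at 0.0404 and 0.0465. With type I left out, *Loxl2* (0.0655 and 0.0468), *Plod2* (0.127 and 0.110) and *Bmp1* (0.0351 and 0.0100) were lower per collagen UMI in PC20 and the other 7 were higher.

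PC20 cells were not without collagen. *Col4a1*, a chain of basement membrane collagen, had 246 CPM in PC20 and made up 26.2% of collagen UMIs there, against 1139 CPM and 18.9% in PC5. *Col8a1* had 155 CPM in PC20 and 136 CPM in PC5, and *Col18a1* 74.2 and 20.7 CPM. The collagen messages left in PC20 were thus led by chains of network, short-chain and basement membrane collagens, and *Col3a1*, at 101 CPM, was the leading fibrillar chain.

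Promoter sequences are shown for *P4ha1*, *P4ha2* and *Pcolce*, picked because they were at least 2-fold higher in PC20, together with *Col1a2*. The windows of *Plod1* and *Serpinh1* are counted below but not shown. Prolyl hydroxylase genes are textbook targets of HIF-1, and the list of HIF-1 targets was higher in PC20. *Pcolce* is not a prolyl hydroxylase gene, and the part of HIF-1 in these levels was not tested. RefSeq start sites on GRCm38.p6 were in hand for 5 of the 10 genes (*Plod1*, *Pcolce*, *Serpinh1*, *P4ha1* and *P4ha2*) and for *Col1a2*. Each line holds the 250 bases upstream of the start, 5′ to 3′ on the gene's strand, and capitals mark the core of the hypoxia response element, ACGTG or GCGTG, on either strand. The windows are chr10:59323046-59323295 (plus strand) for *P4ha1*, chr11:54100674-54100923 (plus) for *P4ha2*, chr5:137611405-137611654 (minus) for *Pcolce* and chr6:4505368-4505617 (plus) for *Col1a2*. Those of *P4ha2*, *Pcolce* and *Col1a2* lie inside the GENCODE spans of these genes, whose outermost starts are further upstream than the RefSeq starts used.
P4ha1: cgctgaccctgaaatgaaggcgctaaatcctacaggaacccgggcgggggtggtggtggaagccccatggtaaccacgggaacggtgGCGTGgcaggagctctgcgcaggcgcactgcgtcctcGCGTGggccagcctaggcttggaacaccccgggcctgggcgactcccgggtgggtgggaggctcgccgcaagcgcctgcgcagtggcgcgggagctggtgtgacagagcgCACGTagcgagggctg
P4ha2: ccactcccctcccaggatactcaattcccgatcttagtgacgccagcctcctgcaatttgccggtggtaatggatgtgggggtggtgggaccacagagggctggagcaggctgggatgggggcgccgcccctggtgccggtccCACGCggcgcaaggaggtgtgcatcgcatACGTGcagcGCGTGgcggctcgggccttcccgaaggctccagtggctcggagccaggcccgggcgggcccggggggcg
Pcolce: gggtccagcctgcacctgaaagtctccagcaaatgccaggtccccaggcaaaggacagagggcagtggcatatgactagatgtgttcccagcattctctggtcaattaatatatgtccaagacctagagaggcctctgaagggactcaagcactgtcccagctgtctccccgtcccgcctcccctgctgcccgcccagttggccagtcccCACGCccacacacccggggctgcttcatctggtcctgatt
Col1a2: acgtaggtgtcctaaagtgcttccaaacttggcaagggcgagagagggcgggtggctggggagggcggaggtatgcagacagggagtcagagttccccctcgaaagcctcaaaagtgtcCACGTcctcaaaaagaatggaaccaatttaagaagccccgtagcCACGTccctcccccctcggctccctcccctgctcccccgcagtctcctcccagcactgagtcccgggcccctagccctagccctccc

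Counted over the whole 300 base window, which runs past the start site, the core occurred 3 times for *P4ha1*, 4 times for *P4ha2*, 2 times each for *Plod1* and *Col1a2*, and once each for *Serpinh1* and *Pcolce*. The same letters occurred in 43.8% of all 32851 windows of the table, and in 10 of the 10 HIF-1 target genes found there. The core was therefore present in genes higher in PC20 and also in *Plod1* and *Col1a2*, which were higher in PC5 by CPM. *Lox*, *Loxl1*, *Loxl2*, *Plod2* and *Bmp1*, also higher in PC5, had no window, so the directions cannot be compared. The windows shown or counted here held 59.3% to 70.3% G and C, and the share over all windows was not matched for this. A match of 5 letters is a description of the sequence and not a binding site.

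The prolyl 4-hydroxylase alpha subunits, the catalytic partners of *P4hb*, were both higher in PC20. *P4ha1* (ENSMUSG00000019916, chromosome 10 from 59323296 to 59373304) had 176 CPM (175 to 178) in PC5 against 470.2 CPM (467 to 473) in PC20, for a log2 ratio of -1.42 (-1.43 to -1.40). *P4ha2* (ENSMUSG00000018906, chromosome 11 from 54100095 to 54131665) had 27.7 CPM (27.0 to 28.4) in PC5 against 86.2 CPM (84.9 to 87.5) in PC20, for a log2 ratio of -1.64 (-1.68 to -1.60). The genes differed in level but not much in proportion. *P4ha1* made up 86.4% of the pair's UMIs in PC5 and 84.5% in PC20, while the pair's summed level went from 204 CPM in PC5 to 556 CPM in PC20. In thinned cells a *P4ha2* UMI was found in 24.2% of PC5 and 57.8% of PC20 cells.

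The lysyl hydroxylases went separate ways. *Plod2* (ENSMUSG00000032374, chromosome 9 from 92542223 to 92608428) hydroxylates lysines in the telopeptides, the short ends where crosslinks form. It had 472 CPM (469 to 475) in PC5 against 103 CPM (101 to 104) in PC20, for a log2 ratio of 2.20 (2.18 to 2.22). *Plod1* (ENSMUSG00000019055, chromosome 4 from 147909753 to 147936767), which acts on lysines within the helix, had 49.1 CPM (48.1 to 49.98) and 45.0 CPM (44.1 to 46.0), a log2 ratio of 0.12 (0.08 to 0.17) that became -0.72 when UMIs per cell replaced CPM. *Plod2* thus differed 4.60-fold while *Plod1* was near level on the CPM scale. *Plod2* made up 81.0% of the UMIs of the 3 *Plod* genes in PC5 and 56.4% in PC20, *Plod1* 8.42% and 24.8%, and *Plod3* 10.6% and 18.8%.

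*Serpinh1* encodes HSP47, the collagen-specific chaperone, and had the highest level of the 10 in both libraries. The gene (ENSMUSG00000070436, chromosome 7 from 99345376 to 99353239) had 726 CPM (723 to 730) in PC5 against 905 CPM (901 to 910) in PC20, for a log2 ratio of -0.32 (-0.33 to -0.31). Thinned cells with a UMI were 99.2% in PC5 and 99.6% in PC20. It ranked 164th of all genes by level in PC5 and 147th in PC20, where *Col1a2* ranked 98th and 14811th.

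*Bmp1* and *Pcolce* act on the same step in opposite proportions here. *Bmp1* encodes the proteinase that removes the C-propeptide from fibrillar procollagens and that also activates lysyl oxidase. The gene (ENSMUSG00000022098, chromosome 14 from 70474558 to 70520234) had 130.4 CPM (129 to 132) in PC5 against 9.35 CPM (8.92 to 9.79) in PC20, for a log2 ratio of 3.80 (3.73 to 3.87), the widest of the 10. A *Bmp1* UMI was found in 71.2% of thinned PC5 cells (70.2 to 72.1) and in 9.14% of thinned PC20 cells (8.31 to 10.0). Cells of PC20 were not sorted into types, so a background share from free RNA could not be read. *Pcolce* encodes an enhancer that binds the C-propeptide and speeds its removal by BMP1. The gene (ENSMUSG00000029718, chromosome 5 from 137605103 to 137613784) had 50.01 CPM (49.1 to 51.0) in PC5 against 136 CPM (135 to 138) in PC20, for a log2 ratio of -1.45 (-1.48 to -1.41). Its span overlaps *Fbxo24* on the same strand and *Gm36266* on the other, which had 85 and 83 UMIs in PC5 and 488 and 148 in PC20, far below the 11156 and 26046 of *Pcolce*. The enhancer was thus 2.72-fold higher and the proteinase 13.9-fold lower in PC20.

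The lysyl oxidases, copper enzymes that turn lysines into reactive aldehydes, were all 3 higher in PC5 by CPM, with *Loxl1* the exception per cell. *Loxl2* (ENSMUSG00000034205, chromosome 14 from 69609068 to 69695834) had 243 CPM (241 to 245) in PC5 against 43.6 CPM (42.7 to 44.6) in PC20, for a log2 ratio of 2.48 (2.44 to 2.51). LOXL2 is known for crosslinking type IV collagen in basement membranes. *Lox* (ENSMUSG00000024529, chromosome 18 from 52516067 to 52529867), the founding enzyme of the family, had 269 CPM (267 to 272) in PC5 against 138 CPM (136 to 140) in PC20, for a log2 ratio of 0.97 (0.94 to 0.99) that became 0.12 per cell. *Loxl1* (ENSMUSG00000032334, chromosome 9 from 58287738 to 58313186), best known for elastic fibres, had 115 CPM (113 to 116) and 67.7 CPM (66.5 to 68.9), a log2 ratio of 0.76 (0.73 to 0.79) that became -0.085 per cell. By CPM *Lox* was close to the 2-fold line and *Loxl2* far past it. The 5 genes of the family summed to 646 CPM in PC5 against 283 CPM in PC20. *Lox* made up 41.7% of that sum in PC5 and 48.8% in PC20, *Loxl2* 37.7% and 15.4%, and *Loxl1* 17.7% and 24.0%.

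**Figure D2:**
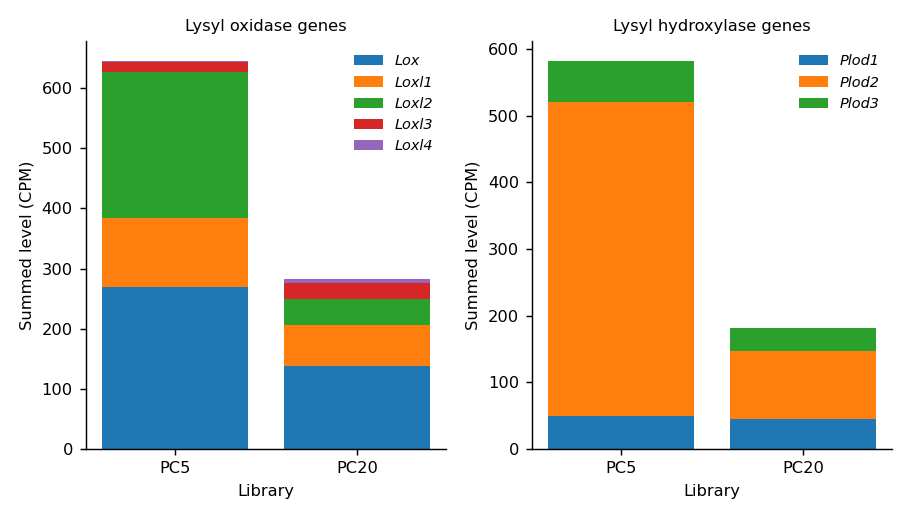
Stacked bars of summed level in CPM for the 5 lysyl oxidase genes (left) and the 3 lysyl hydroxylase genes (right) in the PC5 and PC20 libraries, 1 library each, so no error bars are drawn. The *Loxl2* and *Plod2* segments are the ones that shrink most between the bars, from 243 to 43.6 CPM and from 472 to 103 CPM.

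By level, *Plod2* stood second to *Serpinh1* in PC5 and *P4ha1* second in PC20. The intervals of *Pcolce* and *Plod1* overlapped in PC5, and so did those of *Lox* and *Pcolce* and of *Plod1* and *Loxl2* in PC20. Overlap alone is no test of a difference, and none was made between these neighbours. *P4ha2* was lowest in PC5 and *Bmp1* in PC20.

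Other genes of the pathway were grouped in lists. Of 26 such genes 21 were expressed, 13 on the side of PC5 and 8 on the side of PC20 (median log2 ratio 0.22). Of all expressed genes 48.9% and 51.1% lay on these sides. At least 2-fold apart were 6 in favour of PC5 and 4 in favour of PC20, beside 17.9% and 19.1% of all expressed genes. Among them *Loxl4*, *P4ha3* and *Pcolce2* reached the 10% detection minimum only in PC20 and *Adamts2* only in PC5. That rule largely fixed their side, so these numbers are no result about the pathway. Both further lysyl oxidases were higher in PC20, *Loxl4* at 1.42 and 6.75 CPM (log2 ratio -2.25) and *Loxl3* at 17.0 and 26.5 CPM (-0.64). *Loxl4* was found in 3.06% of PC5 and 21.4% of PC20 cells, and in 1.39% and 6.91% after thinning. It thus counted as expressed only through the deeper PC20 cells, and that rule largely fixed the side on which it was counted. At equal depth its log2 ratio was -2.38. Among 6 expressed hydroxylase genes, 4 were higher in PC5 and 2 in PC20. The largest log2 ratios in size were -1.10 for *P4ha3* and 0.85 for *Plod3*, and *P4hb*, the shared beta subunit, had 460 and 382 CPM. *P4ha3* reached the 10% detection minimum only in PC20 (5.48% of PC5 and 16.6% of PC20 cells), which largely fixed its side. In thinned cells its log2 ratio was -0.91.

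Of 9 expressed endoplasmic reticulum partners 6 were higher in PC5 and 3 in PC20, beside 48.9% and 51.1% of all expressed genes. *Fkbp14*, a prolyl isomerase, had a log2 ratio of 2.21, *Creb3l1*, a transcription factor for collagen secretion, 2.21, and *Crtap*, a subunit of the prolyl 3-hydroxylation complex, 1.93. Its partner *Ppib*, cyclophilin B, stood on the other side at -1.35, with 209 CPM in PC5 against 532 CPM in PC20. Of 4 expressed propeptide proteinases and enhancers, the 3 proteinases were at least 2-fold higher in PC5, where 17.9% of all expressed genes were. They were the N-proteinases *Adamts14* (2.01) and *Adamts2* (1.496) and the proprotein convertase *Furin* (1.95). The enhancer *Pcolce2* stood at -4.02, with 0.453 CPM in PC5 against 7.34 CPM in PC20. With *Bmp1* and *Pcolce* counted in, 4 proteinase genes were higher in PC5 and both enhancer genes in PC20. *Pcolce2* reached the 10% detection minimum only in PC20 (0.945% of PC5 and 20.6% of PC20 cells). *Adamts2* reached it only in PC5 (14.8% and 9.77%). That rule largely set the direction of these 2 genes. Without them *Pcolce* is the only enhancer gene, so a split by kind cannot be read from these genes.

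All 7 expressed fibrillar collagen genes were at least 2-fold higher in PC5 (median log2 ratio 3.52), beside 17.9% of all expressed genes. *Col1a1*, *Col1a2*, *Col5a2* and *Col5a3* reached the 10% detection minimum only in PC5, so that rule largely fixed their direction. *Col3a1*, *Col5a1* and *Col11a1*, at 3.52, 1.34 and 1.82, reached it in both libraries. *Col5a2* had 188 CPM in PC5 against 0.162 CPM in PC20. Among 5 expressed substrates and fibril partners, 4 were higher in PC5, led by *Postn* (12.92), *Dcn* (8.26) and *Fbn1* (4.39). *Fn1* stood at 0.33 and *Sparc*, a collagen-binding protein, at -0.14. *Postn* and *Dcn* also reached the detection minimum only in PC5. The HIF-1 targets lay mostly on the other side. Of 11, 10 were higher in PC20 and 8 of these at least 2-fold, with a median of -1.68. Of all expressed genes 51.1% were higher in PC20 and 19.1% at least 2-fold. *Car9*, a carbonic anhydrase, had 0.664 CPM in PC5 against 414 CPM in PC20, while *Adm* was the exception at 1.38. *Car9* reached the detection minimum only in PC20. *P4ha1* and *P4ha2* shared the direction of most targets and *Plod2*, *Lox* and *Loxl2* did not. *Plod1* stood at 0.12 by CPM and at -0.72 with UMIs per cell. The part of hypoxia signalling in these values was not tested.

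**Figure D3:**
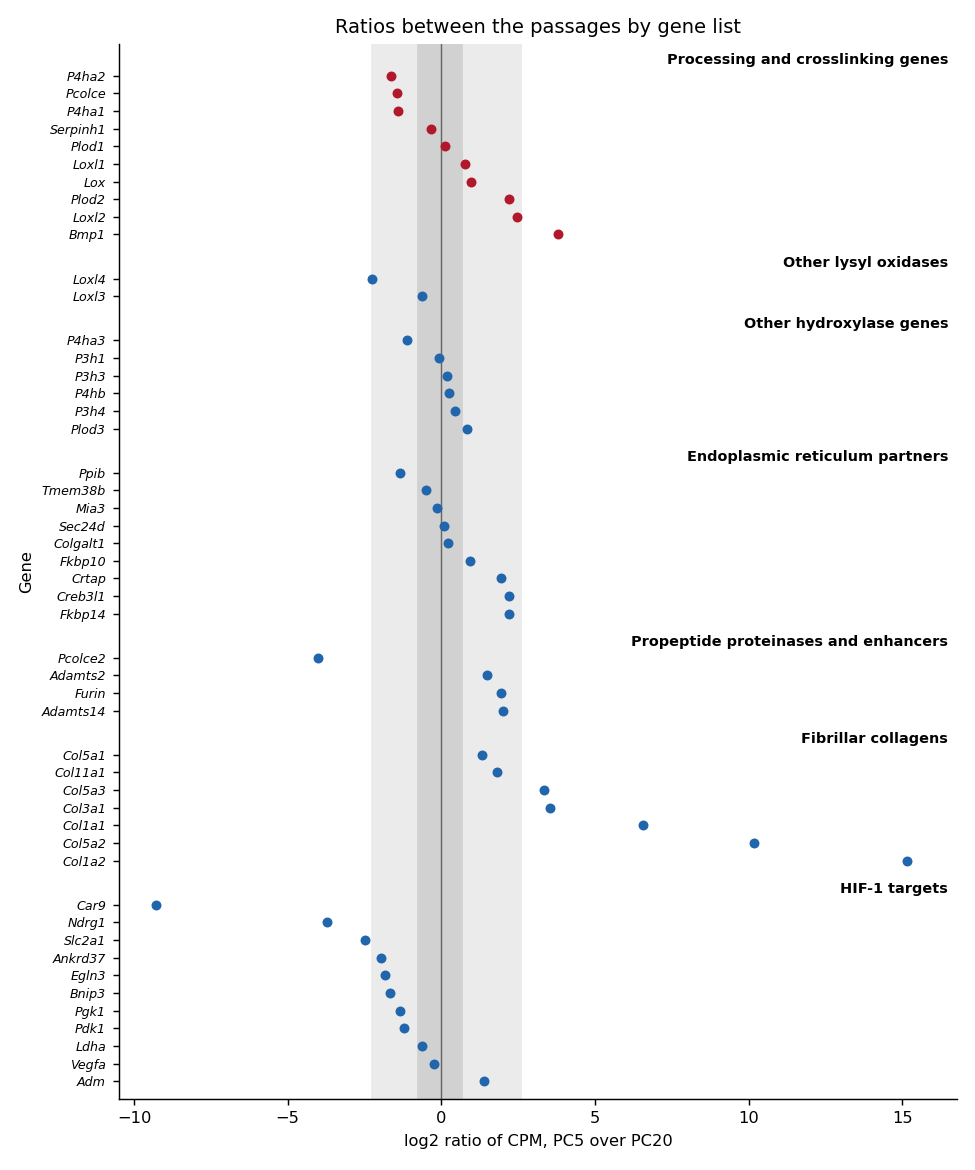
Log2 ratio of CPM (PC5 over PC20) for every expressed gene of the lists drawn, 1 point per gene, with the 10 genes in red. The list of substrates and fibril partners and the lists of cell type markers are not drawn. The dark and pale bands hold the middle 50% and 90% of all 10504 expressed genes. The red points run from -1.64 (*P4ha2*) to 3.80 (*Bmp1*), the fibrillar collagens lie to the right of 0 and all HIF-1 targets but *Adm* lie to the left. Some genes, such as *Col1a2* and *Car9*, reached the detection minimum in only 1 library, which largely fixed their side.

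Cells of 1 culture were next compared at equal depth, after thinning to 10500 UMIs (8847 PC5 and 4474 PC20 cells). PC5 cells with a type I collagen UMI were put into quartiles by their *Col1a1* plus *Col1a2* UMIs, with medians of 13, 20, 26 and 38 UMIs. All 10 genes were higher in the top than in the bottom quartile, with a counting interval above 0. Of 7445 genes detected in these cells 47.2% had such an interval, 15.0% had one below 0, and the median gene had a log2 ratio of 0.13. *P4ha2* had the widest ratio, with 21.9, 26.1, 27.2 and 40.3 CPM from the bottom to the top quartile (log2 ratio 0.88, 0.72 to 1.03). *Serpinh1* had 578, 678, 751 and 920.0 CPM (0.67, 0.64 to 0.70). *Pcolce* had the narrowest, with 47.4, 48.4, 52.9 and 53.4 CPM (0.17, 0.056 to 0.29). Inside the PC5 culture *P4ha1*, *P4ha2*, *Pcolce* and *Serpinh1* were thus higher in cells with more type I collagen, whereas between the libraries they were higher in the one with little of it. For *Pcolce* the interval inside PC5 also held 0.13, the log2 ratio of the median gene. Shares of cells with an *Mki67* or *Top2a* UMI were 31.9%, 36.9%, 38.4% and 34.9% over the quartiles.

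In PC20 the comparison was coarser, since only 161 thinned cells had a type I UMI and 4313 had none. Of the 10 genes 5 had a counting interval above 0 and 1 had one below, where 10.5% and 10.9% of 7290 detected genes did. Levels in cells with a UMI were higher for *Loxl2* (66.8 against 43.9 CPM, log2 ratio 0.61, 0.32 to 0.88), *Pcolce* (192 against 141 CPM), *Loxl1* (85.2 against 63.4 CPM), *Lox* (166 against 133 CPM) and *P4ha1* (573 against 476 CPM). *Serpinh1* was lower, at 855 against 924 CPM. For *Plod1*, *Plod2*, *P4ha2* and *Bmp1*, the last detected in under 10% of these cells, the interval of the ratio held 0.

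Cells were also sorted by UMIs of the 11 HIF-1 targets, most of which came from the glycolysis genes *Ldha* and *Pgk1*. In PC5, 8 of the 10 genes had a counting interval above 0 for the top over the bottom quartile (55.5% of 7437 detected genes did) and 1 had one below (13.6% did). The widest ratios were those of *P4ha2* (1.20, 1.04 to 1.36) and *Plod1* (0.96, 0.85 to 1.08), followed by *Plod2* (0.82, 0.78 to 0.86). The gene below was *Lox*, with 323, 276, 261 and 256 CPM from the bottom to the top quartile (-0.34, -0.39 to -0.29), and the interval of *Pcolce* held 0. *Col1a1* had 458 CPM in the bottom and 789 CPM in the top quartile of these PC5 cells, so the sorting was not separate from type I collagen. In PC20, 7 had an interval above 0 (18.6% of 7279 detected genes did) and 1, *Bmp1*, had one below (23.8% did). *Bmp1* itself was under the 10% detection set for those genes, with 12.2 CPM in the bottom and 7.82 CPM in the top quartile. *Plod1* (1.06, 0.87 to 1.24), *P4ha2* (1.00, 0.87 to 1.14) and *Loxl2* (0.82, 0.64 to 1.00) were widest there, and the intervals of *Lox* and *Loxl1* held 0. *Plod2* and *Loxl2*, which were lower in the PC20 culture as a whole, were thus higher in those PC20 cells that held more HIF-1 target UMIs.

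**Figure D4:**
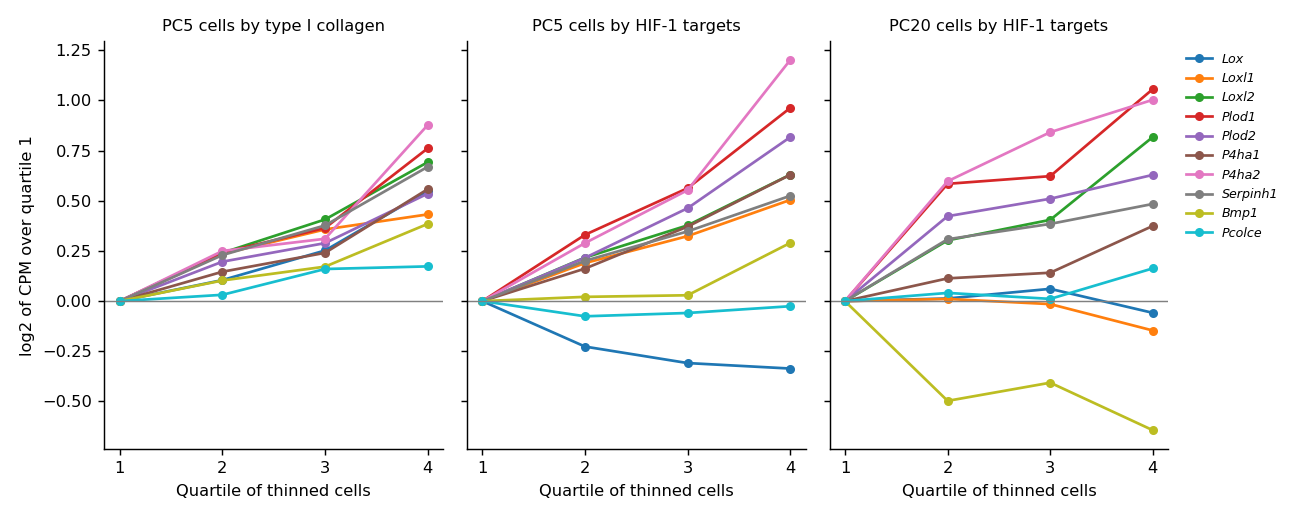
Log2 of each gene's CPM over its CPM in quartile 1, for thinned cells in quartiles 1 to 4 by type I collagen UMIs in PC5 (left) and by HIF-1 target UMIs in PC5 (middle) and PC20 (right). All 10 lines end above 0 on the left, *Lox* ends at -0.34 in the middle panel, and *Bmp1* ends at -0.64 on the right, where few *Bmp1* UMIs were counted.

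In PC5 the ratio of variance to mean among cells was higher for *Lox* than for the other 9 genes. Its variance of UMIs in thinned PC5 cells was 5.20 times its mean, beside 2.47 for *Plod2*, 2.08 for *Serpinh1* and 1.18 to 1.59 for the others. In PC5 365 cells (4.13%) held more than 10 *Lox* UMIs and together 23.1% of all *Lox* UMIs, and 1 cell held 65. In PC20 10 cells passed 10 UMIs, and the variance was 1.99 times the mean for *Lox*, 2.11 for *Serpinh1*, 1.66 for *P4ha1* and 1.08 to 1.36 for the others. These ratios were not adjusted for level, so they do not rank the spread of genes as unlike in level as *Lox* and *Serpinh1*. PC5 cells with more than 10 *Lox* UMIs had 372.6 CPM of *Plod2* and 77.0 CPM of *Loxl1*, against 521 and 119 CPM in cells with no *Lox* UMI. *Col1a1* was 726 CPM in the former and 458 CPM in the latter. Over the classes of 0, 1 to 2, 3 to 5, 6 to 10 and over 10 *Lox* UMIs an *Mki67* or *Top2a* UMI was found in 31.9%, 37.0%, 38.8%, 34.8% and 21.1% of cells. In PC5 *Plod2* was lower and *Col1a1* higher in each class with more *Lox* UMIs. In PC20 *Plod2* ran the other way over the same classes, at 90.1, 100.3, 114, 150 and 238 CPM, the last from 10 cells only. The difference between the cultures in this order was not tested.

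**Figure D5:**
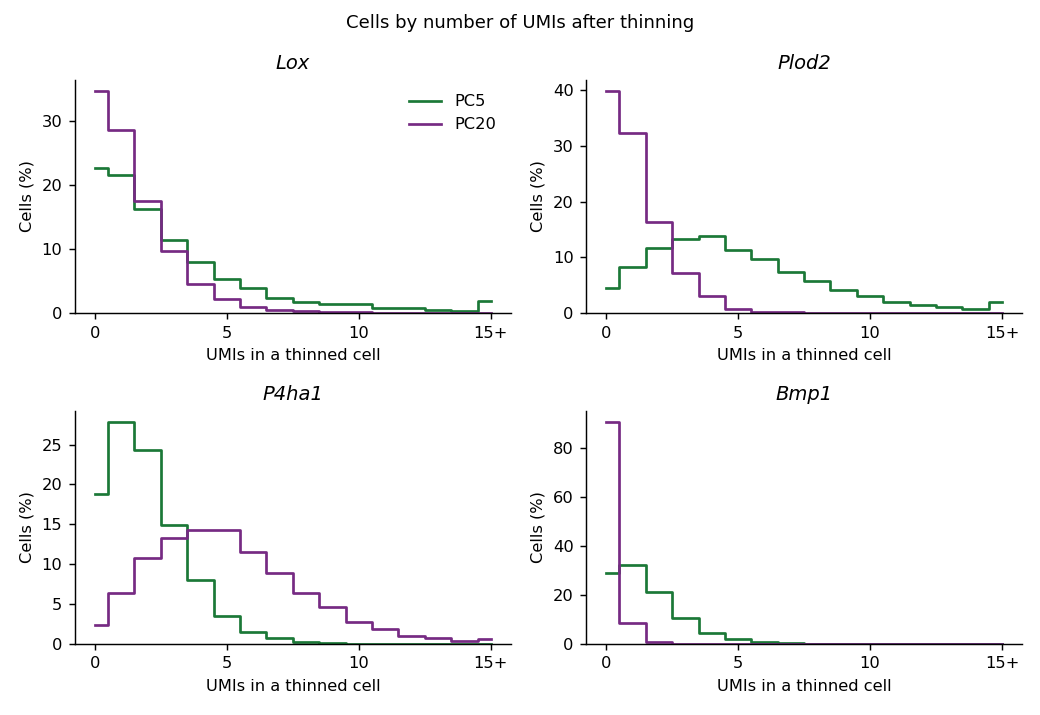
Share of thinned cells (%) by their number of UMIs of *Lox*, *Plod2*, *P4ha1* and *Bmp1*, in PC5 (green, 8847 cells) and PC20 (purple, 4474 cells), with 15 or more UMIs in the last step. *Bmp1* is at 0 UMIs in most PC20 cells, *P4ha1* is shifted to the right in PC20 and *Plod2* in PC5, and the PC5 curve of *Lox* falls from its peak at 0 UMIs but still has cells in the last step.

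Per thinned cell a median of 7 of the 10 genes was detected in PC5 and of 6 in PC20. All 10 were found together in 150 PC5 cells (1.70%) and 11 PC20 cells (0.246%). Across cells the 10 genes were only weakly related to each other, with Pearson's *r* of log UMIs from -0.12 to 0.24 over 45 pairs in PC5 (n = 8847) and from -0.003 to 0.17 in PC20 (n = 4474). The cells share 1 library and the counts are sparse, so these values are descriptions only. Genes whose pattern came closest, at an *r* of 0.3 or more, were *Prss23* (0.38), *Fbln2* (0.34) and *Mgp* (0.31) for *Lox* in PC5 and *Col3a1* for *Plod2* (0.34) and *Loxl2* (0.31). For *Serpinh1* they were *Sparc* (0.38), *Col1a2* (0.35) and *Col1a1* (0.33) in PC5, and *Sparc* (0.38), *Ero1l* (0.35) and *Scd2* (0.34) in PC20. *Sparc* thus came first for *Serpinh1* in both cultures.

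Cycling cells were more common in PC20, so the passages were also compared within classes. Among thinned cells with an *Mki67* or *Top2a* UMI the log2 ratio was 3.69 for *Bmp1*, 2.45 for *Loxl2*, 2.24 for *Plod2* and -1.74 for *P4ha2*, and among cells without one 3.85, 2.47, 2.27 and -1.61. The 10 genes kept their direction in both classes, *Plod1* at 0.084 and 0.16 included.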

How the data were processed

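Single cells of cultured brain PCs were profiled with a 10x 3′ v3.1 kit, with 1 library per passage, and libraries were grouped by passage as labelled. The deposited values are raw UMI counts per gene and barcode, which the authors made with Cell Ranger (version 5.0 in the submitters' processing notes) on mm10. Cell barcodes were called by that tool, and no normalization was applied. Gene positions were read from GENCODE release M21 (GRCm38) and sequences from RefSeq.

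Cells were kept if over 1000 genes were seen in them and mitochondrial genes took under 20% of their UMIs. This removed 679 PC5 and 135 PC20 barcodes, and doublets were not called or removed. UMIs were summed per library and scaled to CPM, with no pseudocount. Genes counted as expressed were those seen in 10% or more of the cells of either library. Cells were thinned at random to 10500 UMIs for shares, classes and correlations, so that 1103 shallower cells of PC5 and 275 of PC20 dropped out. Quartiles keep cells with equal counts together. Python 3.11.15, numpy 2.4.6, scipy 1.17.1 and pandas 2.3.3 were used, and the computation was tested on simulated data.

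Named genes are the 10 genes, *Col1a1* and *Col1a2*, up to 4 members of each pathway list with the largest ratios, and genes with an *r* of at least 0.3. Markers of cell types and of cycling cells and genes that overlap a named gene are also given. Beyond this rule, some genes are named after their values were seen, where not among those 4. They are *P4hb*, *Loxl3*, *Fn1*, *Sparc*, *Adm*, *Ldha*, *Pgk1*, *Col3a1*, *Col4a1*, *Col5a1*, *Col5a2*, *Col5a3*, *Col8a1*, *Col11a1* and *Col18a1*. The 10 genes and the lists were chosen with earlier results of these data known. The classes by HIF-1 targets and by *Lox*, the totals of all collagen chains and the scaling by UMIs per cell were added after the data were seen. Alternatives were a stricter cell filter, all barcodes, thinned cells, cells without *Mki67* or *Top2a*, library totals that omit mitochondrial and ribosomal protein genes, means over cells, centring on the median gene and a 1% detection minimum. No between-passage test was made. Adult and embryonic PCs were not analysed here.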

Additional observations from a re-analysis of the deposited data

How the results depend on the processing

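Each library was 1 sample, so depth limits only counting error and no spread between cultures could be measured. No paired analysis was possible because each passage has 1 library and no replicate numbers. The median log2 ratio of the 10 genes, 0.44 as reported, was 0.51 in thinned cells, 0.52 in cells without *Mki67* or *Top2a* UMIs, 0.50 as a mean over cells and -0.40 with UMIs per cell. With UMIs per cell the log2 ratio was -0.085 for *Loxl1* and -0.72 for *Plod1*, against a median of -0.88 for all expressed genes, so that 4 of the 10 were higher in PC5 and 6 in PC20. The other 8 genes kept their direction there, and all 10 did under the other alternatives. *Lox* passed 2-fold in thinned cells (1.06), in cells without *Mki67* or *Top2a* (1.03) and as a mean over cells (1.01), which made 4 genes at least 2-fold higher in PC5. Of all expressed genes, 1596 were at least 2-fold higher in PC5 in thinned cells, beside 1880 as reported, and 1517 in PC20, beside 2011. These are numbers of genes and not shares. They were not counted for cells without *Mki67* or *Top2a* or for means over cells. With UMIs per cell *Lox* was at 0.12 and *Serpinh1* at -1.16, which made 4 genes at least 2-fold higher in PC20. The share of all expressed genes past 2-fold was not counted on that scale, where their median was -0.88. The log2 ratio of the 10 genes per type I collagen UMI, -8.40 as reported, was -7.99 in cells without *Mki67* or *Top2a* and -8.54 as a mean over cells. A 1% detection minimum moved the number of all genes at least 2-fold higher in PC5 from 1880 to 3023 and in PC20 from 2011 to 2707. It also let more genes count as expressed, so these numbers are not shares.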
